A study of Mus musculus with 2 samples.

Results

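The peaks come from a ChIP-seq library of thymine DNA glycosylase (Tdg) in mouse embryonic stem cells. Those described here are the autosomal peaks whose score reached the upper end of what the peak caller can write. Members were the peaks on chromosomes 1 to 19 above a limit of score, which lay between the highest non-member at 3049.44 and the lowest member at 3050.41. The rule took 2075 of the 72970 peaks in the list. The autosomes held 72227 peaks, so 2.87% of them were ceiling peaks and 70152 were not. The score itself chose the members, so their scores, widths and reads are given as a description and nothing is tested with them.

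The study made ChIP-seq libraries from E14 mouse embryonic stem cells, an established line, with 1 library from cells labelled Bio-Tdg and 1 from BirA cells, the mock. In a Biotag experiment the bacterial ligase BirA attaches biotin to a peptide tag on the protein of interest in living cells, and streptavidin then captures the protein with its DNA. The labels give no further allele, clone or treatment. The peaks are those of the Bio-Tdg library, and with a single library there is no error between replicates. The mock is not analysed here, so whether a given peak reflects binding of Tdg was not tested. Intervals on shares are exact 95% binomial intervals, which cover counting error only and take neighbouring peaks as independent of each other. Peaks of 1 library are not replicates, so no test between the ceiling peaks and the others was made and differences in position are descriptions too. Positions are in the mouse build mm9.

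Tdg removes 5-formylcytosine and 5-carboxylcytosine, which Tet enzymes make by oxidising methylcytosine, and base excision repair then puts an unmodified cytosine in their place. It also excises thymine and uracil mispaired with guanine. In mouse embryonic stem cells Tdg is known to sit at promoters rich in CpG, where it takes part in keeping them unmethylated. Genes and DNA sequence of mm9 are not used here, so the peaks below are named by position.

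The label of a ceiling fitted 1639 of the 2075 members, or 79.0%, which all carried the score 3100. In MACS the score is −10 times the log10 of the p-value. The value 3100 is taken here as what MACS writes for a p-value too small for double-precision arithmetic, from knowledge of that program and not from the labels or the file. The other 436 members, 21.0%, still had a score of their own, 125 of them below 3100 and 311 above 3100. The highest score, 3233.06, is that of the smallest number double precision can hold, and 6 members had it. On that reading the 1639 peaks at 3100 lie beyond those at 3233.06, and the order of the scores does not rank the members. They are called off scale here, and their read bounds below rest on the same reading. For 3 of the 1639 a whole number of reads would also give a score of 3100 within 0.02 units, so these 3 may be on scale.

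Reads could be read back for all 436 members on scale. Each of their scores lay within 0.0114 units of the score that a whole number of reads gives at a rate of 1.13 reads per kb. Their reads ran from 197 to 241 around a median of 217 (quartiles 212 and 223). In the other autosomal peaks they ran from 21 to 239 around a median of 42. The 2 ranges overlapped, and 721 of the others had at least the 197 reads of the lowest member. Membership depends on width as well as on reads, since the score compares the reads with the number the rate predicts for the width. A peak of 2 kb needs 199 reads to reach the limit and goes off scale at 209. A peak of 4 kb needs 235 reads and goes off scale at 245. At both widths 10 reads separate the limit from the end of the scale.

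For an off-scale peak the width gives the smallest number of reads it can hold. These lower bounds had a median of 234 reads (quartiles 227 and 244) and ran from 180 to 501. Reads per kb, the density, had a median of 81.4 in the members on scale (quartiles 75.2 and 87.3) and of 49.5 in the other peaks (quartiles 43.0 and 61.3). Of the others, 2909 peaks or 4.15% were denser than the median member on scale. The lower bound on density in the off-scale members had a median of 71.0 reads per kb, which does not say how far above it they lie. The densest member on scale reached 113.8 reads per kb. A set of 11 non-members exceeded that, all of them at most 1470 bp wide.

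**Figure D1:**
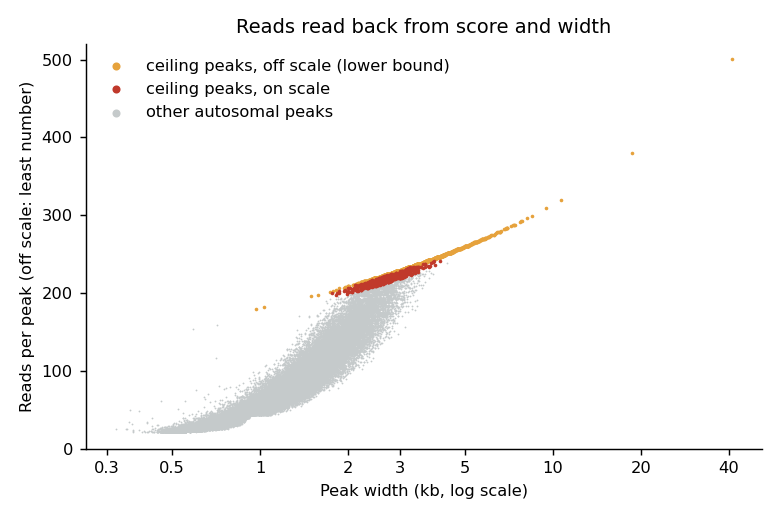
Reads per peak against peak width (kb, log scale) for off-scale ceiling peaks (orange, lowest number of reads possible), ceiling peaks on scale (red) and other autosomal peaks (grey), 1 point per peak. The members on scale form a narrow band between 197 and 241 reads, and the orange points follow the bound and would lie on it or above it.

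At the limit itself the peaks hardly differed. The lowest members were chr8:4257570-4260325 with a score of 3050.41 and 214 reads, chr11:97392696-97395028 with 3051.54 and 206 reads, and chr12:85542110-85545383 with 3051.84 and 223 reads. Just outside lay chr5:119009045-119012087 with 3049.44 and 219 reads, chr11:102326801-102329451 with 3049.06 and 212 reads, and chr1:75340277-75343264 with 3048.45 and 218 reads.

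Ceiling peaks were broad. Their median width was 3135 bp, with quartiles of 2725 and 3688 bp, against 837 bp in the other autosomal peaks, with quartiles of 608 and 1248 bp. They made up 8.91% of the bases under autosomal peaks, 6.95 Mb, against 71.1 Mb under the others. The median over single chromosomes ran from 3013 bp on chromosome 12 to 3322 bp on chromosome 15, so the median width varied little between chromosomes. Off-scale members were wider, with a median of 3295 bp, than members on scale, with 2673 bp. Of the others, 104 peaks or 0.148% were wider than the median member, and 232 members were wider than the widest of the others.

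The share of peaks at the ceiling climbed steeply with width. Among peaks under 1.5 kb there were 3 members, 1 of them under 1 kb. Between 1.5 and 2 kb, 22 of 7235 peaks were at the ceiling, or 0.304% (0.191 to 0.460%). It was 6.68% (5.89 to 7.53%) of the 3683 peaks from 2 to 2.5 kb, 36.5% (34.2 to 38.9%) of the 1624 from 2.5 to 3 kb and 82.4% (79.9 to 84.6%) of the 1032 from 3 to 4 kb. Of the 362 peaks of 4 kb and over, 361 were members.

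**Figure D2:**
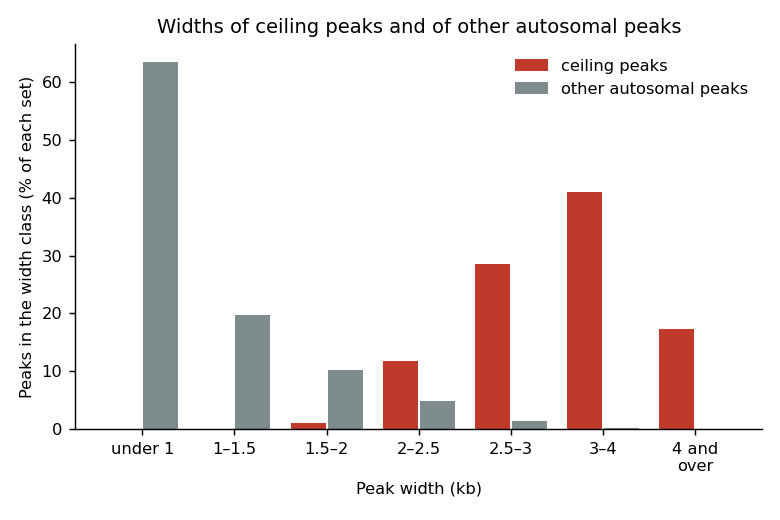
Share of each set of peaks (%) in 7 classes of peak width (kb), for ceiling peaks (red) and other autosomal peaks (grey). Of the 2075 ceiling peaks 850 fall between 3 and 4 kb, and of the 70152 others 44462 are under 1 kb.

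A few members were narrow. The narrowest member was chr9:35112349-35113312, with at least 180 reads in 964 bp or 187 reads per kb, and its nearest neighbour was 21024 bp away. The next, chr2:98502253-98503286, had at least 182 reads in 1034 bp, and the fourth, chr2:98506261-98507832, had at least 198 reads in 1572 bp. These lie in a group of 4 peaks with no other peak for 1194442 bp on the low-coordinate side and 2960495 bp on the high side. The third narrowest, chr8:19983822-19985317 with 1496 bp, was not isolated, with neighbours 206 and 240 bp away and 19 other peaks within 100 kb. The fifth, chr9:2999867-3001595 with 1729 bp, was the first peak of its chromosome, with a neighbour 367 bp away and 17 peaks within 100 kb. The bound per kb is set by the width alone and is higher in narrower peaks. It exceeded 100 reads per kb in 23 of the 1639 off-scale members, which include these 5 by construction.

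The widest peak that was not a member, chr10:80825730-80830094, came close with 239 reads in 4365 bp and a score of 3045.19. The next 4, on chromosomes 7, 2, 16 and 9, were 3781 to 3881 bp wide, held 220 to 228 reads and scored 2861.72 to 3000.55. Among the members, the bound says little for the widest. The peak chr11:3059334-3100222 held at least 501 reads over 40889 bp, or 12.3 reads per kb, and chr11:3030350-3049031 at least 380 over 18682 bp. The next were chr4:132593970-132604635 with at least 319 reads, chr2:165704106-165713580 with at least 309 and chr8:123056330-123064793 with at least 299.

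Position along the genome did not enter the rule. By chromosome, the share of peaks at the ceiling ran from 2.08% (1.57 to 2.71%) on chromosome 13 to 4.20% (3.73 to 4.71%) on chromosome 11, a narrower range than that over widths. Chromosome 11 held 278 members, 13.4% of all, against 9.05% of the other autosomal peaks. Chromosome 19 followed with 3.80% (3.07 to 4.64%) and chromosome 7 with 3.40% (2.92 to 3.95%). For these 3 the interval lay above the autosomal 2.87%. It lay below it on chromosomes 13, 1 with 2.09% (1.68 to 2.57%) and 6 with 2.19% (1.74 to 2.73%), and it held that value on the other 13. Without chromosome 11 the share over the autosomes was 2.74%.

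Per length, chromosome 11 carried 2.34 ceiling peaks per Mb (2.07 to 2.63, by an exact 95% Poisson interval), compared with 0.862 over all autosomes. Chromosome 19 had 1.58 (1.27 to 1.94) and chromosome 17 had 1.27 (1.05 to 1.52). The lowest was chromosome 14 with 0.437 (0.326 to 0.573). Chromosomes with more peaks per Mb had more ceiling peaks per Mb, with a Spearman's rho of 0.883 over 19 chromosomes, and also a higher share of peaks at the ceiling, with a rho of 0.670. The first pair shares the length and the second the number of peaks, so these are descriptions. On chromosome X, outside the rule, 3 of 715 peaks reached the limit, or 0.420% (0.0866 to 1.22%).

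**Figure D3:**
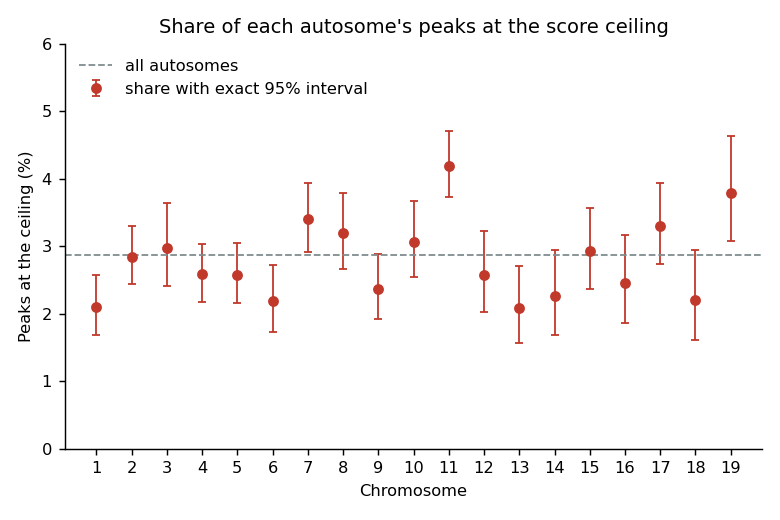
Share of the peaks of each autosome that are ceiling peaks (%), with exact 95% binomial intervals as bars, and the share over all autosomes as a dashed line at 2.87%. Chromosomes 11, 19 and 7 lie above the line and 1, 6 and 13 below it by more than their intervals.

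Mouse centromeres lie at the low-coordinate end, and the far part, beyond the middle between the first and last peak, held 60.0% of the ceiling peaks (57.9 to 62.1%) and 59.3% of the others. With that length cut into 10 equal stretches, the share at the ceiling was highest in the second, at 3.34% (2.93 to 3.80%), and lowest in the third, at 2.39% (1.99 to 2.84%), and the fourth, at 2.44% (2.07 to 2.85%). In these 3 the interval excludes the autosomal 2.87%, and in the other 7 it holds that value. On single chromosomes the far share of ceiling peaks differed from that of the others in both directions. On chromosome 14 the far part held 10 of 52 ceiling peaks, 19.2% (9.63 to 32.5%), against 35.7% of the others, and on chromosome 19 it held 35.9% (26.1 to 46.5%) against 50.6%. The far share was higher on chromosome 10, 74.1% (65.2 to 81.8%) against 61.2%, on chromosome 6, 74.4% (63.2 to 83.6%) against 61.1%, and on chromosome 12, 80.8% (69.9 to 89.1%) against 69.4%. On the other 14 the interval held the share of the others.

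Ceiling peaks were concentrated in megabases that had many peaks. Of the 2235 bins of 1 Mb with an autosomal peak, 836 had a ceiling peak. That count depends on the peaks per bin, as 751 of the bins had 1 to 9 peaks and 2.87% of all autosomal peaks were members. The 243 bins with most peaks held 54.1% of the ceiling peaks and 38.3% of the others. In bins with 1 to 9 peaks, 1.02% of the peaks (0.702 to 1.44%) were at the ceiling. The share was 1.67% (1.41 to 1.96%) in bins with 10 to 24 peaks, 2.0% (1.79 to 2.23%) with 25 to 49, 3.01% (2.80 to 3.23%) with 50 to 99 and 4.22% (3.95 to 4.51%) with 100 and more. Without chromosome 11 the first of these was 1.06% and the last 4.06%. Width moved with crowding too, as 6.63% of the peaks in the emptiest bins and 11.6% in the fullest were 2 kb or wider. Among peaks of 2 to 3 kb alone, the share at the ceiling was 7.53% (4.18 to 12.3%) in the emptiest bins and 17.3% (15.5 to 19.2%) in the fullest. This class does not hold width fixed, since the share at the ceiling was 6.68% at 2 to 2.5 kb and 36.5% at 2.5 to 3 kb. Widths inside the class are not given by bin.

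**Figure D4:**
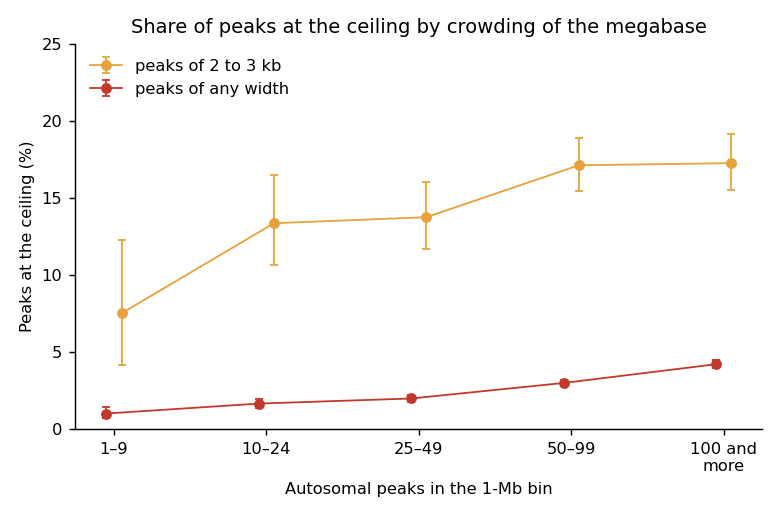
Share of peaks at the ceiling (%) in 1-Mb bins grouped by their number of autosomal peaks, for peaks of 2 to 3 kb (orange) and of any width (red), with exact 95% binomial intervals. Both lines are lowest in bins with 1 to 9 peaks, at 7.53% and 1.02%, and highest in bins with 100 and more, at 17.3% and 4.22%. Within the class of 2 to 3 kb, width may still differ between bins.

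The bins with most ceiling peaks were neighbours on chromosome 10, with 21 of 227 peaks between 80000001 and 81000000 and 20 of 238 between 79000001 and 80000000. Next came chromosome 11, 97000001 to 98000000, with 17 of 223, chromosome 11, 69000001 to 70000000, with 16 of 164, and chromosome 19, 7000001 to 8000000, with 15 of 103. The last also had the highest share among the 509 bins with at least 50 peaks, 14.6% (8.39 to 22.9%). It was followed by chromosome 11, 3000001 to 4000000, with 12 of 94 or 12.8% (6.77 to 21.2%), which contains the 2 widest peaks, and by chromosome 6, 124000001 to 125000000, with 9 of 86 or 10.5% (4.90 to 18.9%). Crowded bins did not always hold ceiling peaks, and 63 of the 509 had none. The fullest of these was chromosome 5, 113000001 to 114000000, with 106 peaks. How many of the 509 would have none at the autosomal share of 2.87% is not given here.

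Ceiling peaks had other peaks close by more often than the rest. Measured from edge to edge, 952 of 2075 had another peak within 1 kb, 45.9% (43.7 to 48.1%), against 32.6% of the others (32.3 to 33.0%). Within 5 kb the share was 77.3% (75.4 to 79.0%) against 64.9% (64.6 to 65.3%), and it was higher in ceiling peaks on 19 of 19 autosomes. Neighbours within 5 kb on both sides were present for 39.1% (37.0 to 41.2%) against 25.7% (25.4 to 26.1%). The median gap to the nearest peak was 1291 bp against 2494 bp. The median number of other peaks within 100 kb was 23 against 16, also higher on 19 of 19 autosomes.

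Within a width class the sets lay much closer together. Among peaks of 2 to 3 kb, 69.2% of the 839 ceiling peaks (66.0 to 72.4%) and 67.9% of the 4468 others (66.5 to 69.3%) had a peak within 5 kb, and the intervals overlap. Within 1 kb the shares were 38.4% (35.1 to 41.8%) and 35.1% (33.7 to 36.6%). The median number of peaks within 100 kb was 19 and 18. Inside the ceiling set the share with a peak within 5 kb was 64.2% (57.9 to 70.2%) at 2 to 2.5 kb, 71.3% (67.5 to 74.9%) at 2.5 to 3 kb, 80.6% (77.8 to 83.2%) at 3 to 4 kb and 88.1% (84.3 to 91.2%) at 4 kb and over. In the others it was 66.8%, 71.7% and 81.9% in the first 3 of these classes. Between midpoints, which a wide peak pushes apart, the median distance was 3734 bp from a ceiling peak and 3591 bp from another peak, so the order of the medians turned round.

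**Figure D5:**
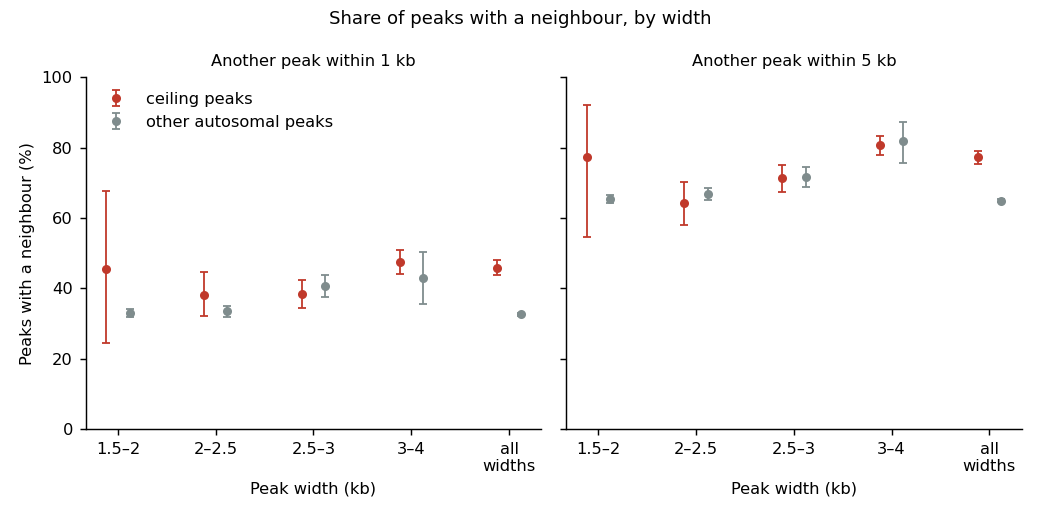
Share of peaks (%) with another peak within 1 kb (left) and 5 kb (right), edge to edge, by peak width (kb), for ceiling peaks (red) and other autosomal peaks (grey), with exact 95% binomial intervals. Over all widths the sets lie apart, at 77.3% and 64.9% within 5 kb, and within each width class their intervals overlap.

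The peaks beside a ceiling peak had reads and widths close to those of all non-members. Non-members within 1 kb of a member numbered 1057 and had a median of 44 reads and 858 bp, against 42 reads and 837 bp over all non-members. Those 1 to 5 kb away had 43 reads and those 5 to 20 kb away 40. Beside ceiling peaks of 2 to 3 kb the median within 1 kb was 36 reads, and beside other peaks of 2 to 3 kb it was 41. The density of other peaks fell with distance from a ceiling peak, with 0.369 peaks per kb in the first 0.5 kb beyond its edge and 0.107 per kb between 75 and 100 kb. Around the others the values were 0.241 and 0.0816. Among peaks of 2 to 3 kb the sets lay closer, with 0.304 per kb around ceiling peaks and 0.272 around others in the first 0.5 kb, and 0.0974 and 0.0900 between 75 and 100 kb. The order turned round between 1 and 10 kb in most of the stretches measured, for example with 0.121 and 0.132 at 1 to 2 kb and 0.104 and 0.114 at 7.5 to 10 kb.

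Ceiling peaks followed each other about as often as their share of all autosomal peaks, which the interval held. The next peak on the high-coordinate side was also a ceiling peak for 73 members, 3.52% (2.77 to 4.40%), against 2.85% (2.73 to 2.98%) for the others and 2.87% over all autosomal peaks. Where the next peak lay under 1 kb away the share was 6.13% (4.31 to 8.42%) against 4.06% (3.73 to 4.41%). The interval of the ceiling peaks left out 4.06%, though the 2 intervals overlap at their ends. Both intervals lay above the autosomal 2.87%. At gaps of 1 to 5 kb the share was 3.52% (2.22 to 5.28%) against 3.36% (3.11 to 3.63%). At gaps of 5 to 20 kb the share was 2.03% (1.02 to 3.60%) against 2.44% (2.24 to 2.66%). Of the members, 1934 had no ceiling peak directly beside them, 64 pairs followed each other, 3 runs had 3 members and 1 run had 4. The median gap from a member to the nearest other member was 91428 bp, with quartiles of 25306 and 325632 bp, and 37.6% had another within 50 kb.

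The run of 4 was chr11:3030350-3100222, where members covered 99.3% of 69.9 kb. The runs of 3 were chr7:29155677-29169035, covered to 92.0%, chr11:120086547-120096594, covered to 95.7%, and chr15:102071918-102089926, covered to 79.6%. The closest pair was chr8:87182967-87187208 and chr8:87187229-87189901, with 20 bp between them. Next came chr15:102071918-102078892 and chr15:102078920-102083028, with 27 bp, and chr11:3051952-3059297 and chr11:3059334-3100222, with 36 bp. No peaks overlapped, and the smallest gap in the autosomal list was 1 bp. Of the 72227 autosomal peaks, 4722 had their nearest peak less than 100 bp away. Whether peaks so close are separate sites was not tested.

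Isolation was uncommon. No other peak lay within 50 kb of 46 ceiling peaks, 2.22% (1.63 to 2.95%), against 4.59% (4.44 to 4.75%) of the others. These shares are over all widths, in which the ceiling peaks were the wider set, and are not given by width class. The most isolated was chr17:39979808-39985908, 6101 bp wide with at least 273 reads, whose nearest peak was 670830 bp away. It was followed by chr12:79326549-79328965 at 253106 bp and by chr1:3660172-3662879, the first peak of its chromosome, at 239540 bp. The next were chr18:7000876-7005579 at 225886 bp and chr2:139502496-139505311 at 181794 bp. All 5 were off scale and none of them had another peak within 100 kb.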

How the data were processed

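ChIP-seq peaks of the Bio-Tdg library were taken from the list the authors deposited, with start, end and a score per peak. MACS writes this score as −10 times log10 of the p-value. The limit for members was 3050. Per the submitters' processing notes CASAVA 1.8, Bowtie 0.12.7, MACS 1.4.1 and mm9 were used, without saying for which step. How peaks were thresholded and against which control is not given in the sources used here. A single rate gave the scores of all 436 members on scale and all 70152 others within 0.02 units. These scores thus show no rate that differs between loci. The depth of the library is unknown.

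A rate of reads per kb was fitted on 400 scores below 3050, and reads per peak were taken as the whole number whose Poisson upper tail gives the score within 0.02 units, with a width of at least 370 bp. Near the end of the double-precision range the tail was summed term by term, as MACS sums it. For off-scale peaks the fewest reads with a tail of 0 were taken. Reads are 1 higher throughout if the tail counts at least that number. The scripts were tested on simulated data.

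Distances are from edge to edge unless given as midpoints. A chromosome's length is the distance between its outermost peaks. With 1 library and members chosen by score, no test was made. The members, lists and comparisons were chosen with earlier results of these data known. Named regions were the 3 peaks on each side of the limit, the 5 narrowest, widest and most isolated members, the 5 widest others, the 1-Mb bins with most members or the highest share, and the longest runs and closest pairs. The widest members and the far share of single chromosomes were added after seeing the data. Alternatives were other score limits, merging of peaks less than 1 kb apart, midpoints, peaks of 2 to 3 kb, and leaving out chromosome 11 or the widest 1%. Genes and sequence of mm9 were not used. Software was matplotlib 3.10.9, pandas 2.3.3, numpy 2.4.6 and scipy 1.17.1 under Python 3.11.15.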

Additional observations from a re-analysis of the deposited data

How the results depend on the processing

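Of 58 values under other settings, 30 stayed within the 95% interval of the reported value (for the number of peaks, within 1.5 times) and 28 moved beyond it. A score of 2500 or more gave 4198 peaks with a median width of 2682 bp. Of these, 39.7% had another peak within 1 kb and 71.6% within 5 kb, against 32.6% and 64.9% of the others. The median gap was 1735 bp against 2498 bp, and 20 peaks against 16 lay within 100 kb. The set is larger at this limit, and the next peak belonged to it for 5.98% of its peaks, against 5.80% of the others. A score of 3100 or more gave a width of 3172 bp. Only the peaks at exactly 3100, a setting added after seeing the data, gave 3295 bp. Merging peaks less than 1 kb apart gave 3766 bp and 65.0% within 5 kb, against 50.5% of the others. The gap was 3221 bp against 4923 bp, 4.49% against 3.42% had a next ceiling peak, and 17 peaks against 12 lay within 100 kb. The share within 1 kb is then 0 by construction and was not run. Without the widest 1% of peaks the width was 2851 bp. A peak lay within 1 kb of 41.3% against 32.2% of the others, and within 5 kb of 72.6% against 64.6%. The gap was 1646 bp against 2553 bp, 2.03% against 1.92% had a next ceiling peak, and 21 peaks against 16 lay within 100 kb. Without chromosome 11 the far part held 57.8% of ceiling peaks, against 58.2% of the others. Between midpoints 0.0% of ceiling peaks had a peak within 1 kb, against 6.41% of the others. Within 5 kb it was 65.7% against 59.9%, and the median distance was 3734 bp against 3591 bp. Among peaks of 2 to 3 kb the shares were 38.4% and 69.2%, the gap 2042 bp against 2169 bp, and 19 peaks lay within 100 kb. In these settings the ceiling peaks had the higher share within 5 kb, by the least at 2 to 3 kb (69.2% against 67.9%). In that class they were still wider, with a median of 2660 bp against 2268 bp. In finer classes the ceiling peaks had the lower share, with overlapping intervals. It was 64.2% against 66.8% at 2 to 2.5 kb, 71.3% against 71.7% at 2.5 to 3 kb and 80.6% against 81.9% at 3 to 4 kb. At 1.5 to 2 kb, with 22 ceiling peaks, it was higher, 77.3% against 65.3%. The cause of the shifts between settings was not tested, other than by the settings themselves. Leaving out the first megabase of chromosome 11 with peaks, also added, left 12.9% of ceiling peaks on that chromosome.

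No paired analysis was possible because there is 1 library in a group, with values of Bio-Tdg alone. Reads of off-scale peaks are known only as lower bounds.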

Other observations

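The mitochondrial genome had 1 peak, and it was at the ceiling. Chromosome Y had 7 of its 27 peaks there, 25.9% (exact 95% binomial interval 11.1 to 46.3%).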
